A study of Mus musculus with 10 samples.

Results

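The interferon regulatory factors (IRFs) are a family of transcription factors that share a DNA-binding domain and switch on, or in some cases hold down, interferon genes and the genes that interferons induce. Members were chosen as genes with a probe set whose only gene symbol is that of an Irf gene. Described here are 8 genes (Irf1, Irf2, Irf3, Irf4, Irf5, Irf7, Irf8 and Irf9) with 9 probe sets, out of 19938 genes in all.

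RNA of 10 melanoma tumours from male mice was hybridised to Affymetrix whole-transcript arrays, 5 labelled Exercise (300, 301, 306, 309 and 310) and 5 labelled non-Exercise (326, 327, 329, 330 and 331). According to its title the study concerned voluntary exercise, tumour growth and natural killer cells, and the comparison asks which transcripts differ between tumours of exercised and non-exercised mice. Strain, age, the melanoma line and the length of exercise were not given in the sources used here. Nothing in the labels says whether each number stands for a separate animal; p-values here reflect the spread among these samples only.

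Family members act at different points of the interferon system. IRF3 lies inactive in the cytoplasm until sensors of foreign nucleic acid lead to its phosphorylation, and then starts interferon beta transcription; IRF7 is itself induced by interferon and drives the interferon alpha genes. Secreted interferon acts through JAK kinases and STAT factors, and IRF9 is the DNA-binding subunit of ISGF3, the complex with STAT factors that type I interferon activates, whereas IRF1 is induced mainly by interferon gamma. IRF5 acts below Toll-like receptors in myeloid cells, IRF8 directs the development of monocytes and dendritic cells, IRF4 acts in lymphocytes, plasma cells and melanocytes, and IRF2 binds the sites of IRF1 and can oppose it.

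In the Exercise tumours 4 of the 8 members were higher, Irf5, Irf7, Irf8 and Irf9, with increases between 1.55-fold and 2.03-fold, and 0 were lower. The other four, Irf1, Irf2, Irf3 and Irf4, did not pass the threshold, a limma adjusted p under 0.05 over all 19938 genes; at an unadjusted p under 0.05 in limma, 5 members were higher and 0 lower. Of all genes, 6.35% were higher and 10.6% were lower by the same rule. The median log2 change of the 8 members was 0.76, against -0.02 over all genes, and 7 of the 8 changes were positive, against 8561 of 19938. Irf5 alone among the 8 had all Exercise arrays above all non-Exercise arrays, a pattern that 3.74% of genes showed, and 0 members had the opposite pattern, shown by 8.33% of genes. In bulk tissue, a change in the number of cells of a type and a change in RNA per cell cannot be told apart.

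Array medians as deposited lay between 8.64 and 8.77, values between 4.66 and 14.55, and within-group correlations across genes between 0.976 and 0.996. Melanocytic markers matched the labelled tissue, with group means of the 8 genes from 11.88 (Tyr) to 13.58 (Dct), and 0 of the 8 passed the test between groups with quantile normalisation. Liver transcripts set Exercise arrays 306, 309 and 310 apart: albumin (Alb) measured 12.28 to 12.97 there and 6.84 to 9.22 on the other 7 arrays. Whether liver tissue in these samples contributed to any IRF value was not tested, and the results below are given without these 3 arrays as well where that ends a call or moves the value of a called gene by over 1.5 times. All levels are normalised log2 values, and all changes are Exercise minus non-Exercise on the log2 scale, given with the standard error (SE) after ±.

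Promoter sequences are shown for Irf1, Irf8 and Irf2, because these were the members whose windows held a motif through which interferon is known to act. RefSeq gene starts in the mouse assembly GRCm38.p6 gave the 250 bases upstream of 11 starts of the 8 genes, all matched by symbol. Both strands were searched for GAAANNGAAA, a form of the interferon-stimulated response element bound by ISGF3 and by IRFs, and for TTCNNNGAA, a form of the gamma-activated site bound by STAT dimers. The first was found in 2.98% and the second in 7.02% of 32851 windows of this length. The windows are chr11:53769764-53770013 for Irf1, chr8:120736108-120736357 for Irf8 and chr8:46739495-46739744 for Irf2, all on the plus strand, read 5′ to 3′ and ending at the base before the start, with motif matches in capitals.
Irf1: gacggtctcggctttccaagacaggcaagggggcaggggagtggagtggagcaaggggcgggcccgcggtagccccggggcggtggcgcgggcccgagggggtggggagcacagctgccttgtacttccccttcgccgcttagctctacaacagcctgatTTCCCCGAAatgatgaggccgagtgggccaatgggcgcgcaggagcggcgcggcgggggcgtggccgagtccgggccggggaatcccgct
Irf8: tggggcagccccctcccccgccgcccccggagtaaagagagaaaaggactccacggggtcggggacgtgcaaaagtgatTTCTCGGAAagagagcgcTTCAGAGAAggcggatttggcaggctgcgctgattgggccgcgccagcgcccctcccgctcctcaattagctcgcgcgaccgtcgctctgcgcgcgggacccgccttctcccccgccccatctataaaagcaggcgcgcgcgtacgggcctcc
Irf2: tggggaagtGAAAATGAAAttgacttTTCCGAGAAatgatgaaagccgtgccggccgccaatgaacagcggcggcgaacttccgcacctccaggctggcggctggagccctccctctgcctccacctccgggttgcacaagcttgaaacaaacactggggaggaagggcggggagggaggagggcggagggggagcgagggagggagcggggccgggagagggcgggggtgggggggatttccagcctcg
In the Irf1 window the capitals mark a gamma-activated site form, TTCCCCGAA, from position -90 to -82 relative to the gene start. The Irf8 window held the same motif in 2 places, TTCTCGGAA from -171 to -163 and TTCAGAGAA from -153 to -145. The Irf2 window held an interferon-stimulated response element form, GAAAATGAAA, from -241 to -232, and a gamma-activated site form, TTCCGAGAA, from -224 to -216. None of the matches overlapped. The windows of Irf3, Irf4, Irf5, Irf7 and Irf9, and the second windows of Irf1 and Irf8, held neither string. The Irf5 window, chr6:29526375-29526624, lay inside the Irf5 locus given below, so bases upstream of that locus were not searched. The Irf7 window, chr7:141266425-141266674 on the minus strand, overlapped in part the Irf7 locus given below, so fewer bases upstream of that locus were searched. A match is a string of letters and not evidence of binding. The log2 changes of the 3 genes with matches were 0.90 for Irf1, 1.02 for Irf8 and 0.16 for Irf2, and Irf8 was the only one of them that passed the threshold.

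**Figure D1:**
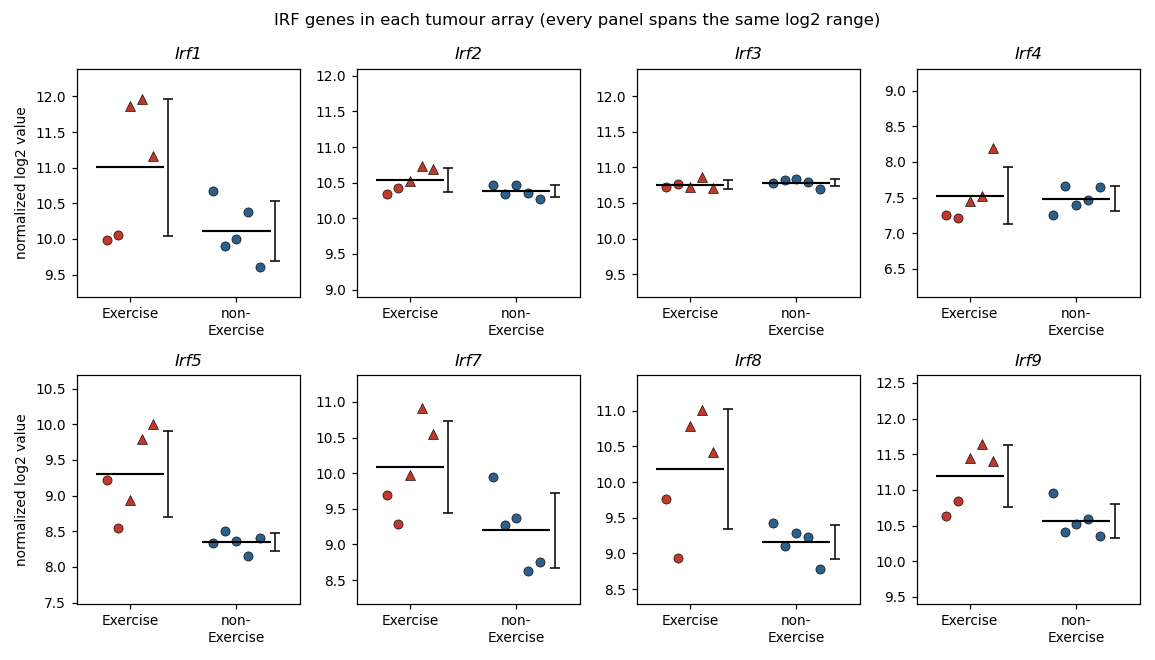
Normalised log2 value (vertical axis) of each of the 8 IRF genes on every array, by group (horizontal axis), each gene in its own panel. Points are arrays, with triangles for Exercise arrays 306, 309 and 310, horizontal lines are group means and bars are 1 SD (n = 5 per group). Irf5 is the panel without overlap between groups, while Irf3 lies between 10.70 and 10.87 on all 10 arrays.

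Among the members that start interferon production, Irf7 rose and Irf3 stayed within its spread. Irf7 (chr7:141263183-141266499) measured 9.70, 9.29, 9.98, 10.91 and 10.55 in Exercise arrays 300, 301, 306, 309 and 310, and 9.95, 9.28, 9.37, 8.63 and 8.75 in non-Exercise arrays 326, 327, 329, 330 and 331. Arrays 306, 309 and 310 lay above all non-Exercise arrays, and the other Exercise arrays lay within the non-Exercise range. The means were 10.09 ± 0.65 and 9.20 ± 0.53 (SD, n = 5 each), with a log2 change of 0.89 ± 0.29 or 1.86-fold (limma adjusted p = 0.047). That call was lost without any 1 of Exercise arrays 306, 309 and 310 or non-Exercise arrays 327, 329, 330 and 331, with limma adjusted p between 0.0099 and 0.121 over the 10 fits that each left out 1 array. Irf7 also fell short with median centring (limma adjusted p = 0.0573), without the intensity trend (limma adjusted p = 0.0695), with array weights (0.60, limma adjusted p = 0.148) and with robust variances (limma adjusted p = 0.156), and without arrays 306, 309 and 310 together the change was 0.30 (limma adjusted p = 0.537).

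Irf3 (chr7:44997648-45002848), the constitutive member that acts first in the response to viral nucleic acid, measured 10.72, 10.76, 10.73, 10.87 and 10.71 in Exercise tumours and 10.78, 10.82, 10.84, 10.79 and 10.70 in non-Exercise tumours, in the same order of arrays. The groups overlapped over nearly their whole range. Its log2 change of -0.03 ± 0.05 had a 95% interval from -0.14 to 0.09 (limma adjusted p = 0.835), so a change the size of that of Irf7 lay outside the interval. The difference Irf7 minus Irf3, a contrast of the induced with the constitutive member, was -0.67 ± 0.62 in Exercise tumours and -1.59 ± 0.51 in non-Exercise tumours (SD, n = 5 each). It was larger by 0.92 in the Exercise group, with 3 Exercise arrays above all non-Exercise arrays (two-sided exact permutation p = 0.0476, adjusted p = 0.0714 over 3 such pairs), and by 0.35 without arrays 306, 309 and 310. The smallest p that the 252 assignments of 10 arrays allow is 0.00794.

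Irf5 (chr6:29526130-29541869), which carries Toll-like receptor signals to inflammatory cytokine genes, gave the smallest p of the family. It measured 9.22, 8.55, 8.94, 9.80 and 10.01 in Exercise tumours and 8.33, 8.50, 8.37, 8.16 and 8.41 in non-Exercise tumours. Every Exercise array lay above every non-Exercise array, though array 301 exceeded the highest of them, 327, by little. The means were 9.31 ± 0.60 and 8.36 ± 0.12 (SD, n = 5 each), with a log2 change of 0.95 ± 0.22 or 1.93-fold (limma adjusted p = 0.00854). Irf5 passed in each of the 10 fits that left out 1 array, with changes from 0.77 to 1.14 and limma adjusted p from 0.000597 to 0.0263. Without arrays 306, 309 and 310 it was the only member to pass, with a change of 0.53 (limma adjusted p = 0.0442).

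Irf9 (chr14:55603985-55610030), the DNA-binding subunit of ISGF3, rose 1.55-fold. It measured 10.64, 10.84, 11.45, 11.65 and 11.40 in Exercise tumours and 10.96, 10.41, 10.52, 10.59 and 10.36 in non-Exercise tumours. Arrays 306, 309 and 310 lay above all others, and non-Exercise array 326 lay above Exercise arrays 300 and 301. The means were 11.20 ± 0.43 and 10.57 ± 0.24 (SD, n = 5 each), with a log2 change of 0.63 ± 0.17 (limma adjusted p = 0.0218). The call went when any 1 of Exercise arrays 309 and 310 or non-Exercise arrays 327, 329 and 331 was left out (limma adjusted p from 0.00546 to 0.0562 over the 10 fits leaving out 1 array), and with robust variances (limma adjusted p = 0.0876). Without arrays 306, 309 and 310 the change was 0.17 (limma adjusted p = 0.453).

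Irf1 (chr11:53770014-53778374), the activator induced by interferon gamma, had a change close to that of Irf7 but a wider spread. It measured 9.98, 10.05, 11.86, 11.97 and 11.16 in Exercise tumours and 10.67, 9.90, 10, 10.38 and 9.61 in non-Exercise tumours. The Exercise values divided into those of arrays 306, 309 and 310, above all non-Exercise arrays, and those of arrays 300 and 301, within the non-Exercise range. The means were 11.01 ± 0.95 and 10.11 ± 0.42 (SD, n = 5 each), with a log2 change of 0.90 ± 0.35 or 1.86-fold that did not pass (limma adjusted p = 0.102). It passed without Exercise array 300 (1.15, limma adjusted p = 0.0333) or 301 (1.13, limma adjusted p = 0.0247), and without arrays 306, 309 and 310 it was -0.09 (limma adjusted p = 0.834). A second Irf1 probe set, for which the platform annotation lists a single cDNA record, gave a smaller change of 0.14 ± 0.15 (limma adjusted p = 0.600 over all probe sets). It measured 8.54, 8.74, 9.13, 9.39 and 8.60 in Exercise tumours and 8.89, 8.60, 8.68, 8.87 and 8.64 in non-Exercise tumours, again highest in arrays 309 and 306 and unlike the first not raised in array 310. With the mean of both probe sets the change of Irf1 was 0.52 (limma adjusted p = 0.167).

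Irf2 (chr8:46739745-46847458), which can oppose IRF1 at shared sites, moved little. It measured 10.34, 10.42, 10.52, 10.73 and 10.69 in Exercise tumours and 10.47, 10.34, 10.47, 10.36 and 10.27 in non-Exercise tumours. The same 3 Exercise arrays were the highest, although all 10 values lay between 10.27 and 10.73. The log2 change was 0.16 ± 0.08, with a 95% interval from -0.01 to 0.33 (limma adjusted p = 0.212). The difference Irf1 minus Irf2 was 0.47 ± 0.83 in Exercise tumours and -0.27 ± 0.36 in non-Exercise tumours (SD, n = 5 each), which did not pass (difference 0.74, two-sided exact permutation p = 0.127, adjusted p = 0.127 over 3 pairs) and was -0.09 without arrays 306, 309 and 310. By array it was -0.35, -0.36, 1.34, 1.24 and 0.47 against 0.21, -0.44, -0.47, 0.01 and -0.66, so arrays 300 and 301 lay among the non-Exercise arrays.

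Irf8 (chr8:120736358-120756694), the factor of monocyte and dendritic cell development, rose 2.03-fold. It measured 9.76, 8.94, 10.79, 11.01 and 10.42 in Exercise tumours and 9.42, 9.10, 9.28, 9.23 and 8.78 in non-Exercise tumours. All Exercise arrays but 301 lay above all non-Exercise arrays, which spanned a narrow range. The means were 10.18 ± 0.84 and 9.16 ± 0.24 (SD, n = 5 each), with a log2 change of 1.02 ± 0.30 (limma adjusted p = 0.0308). The call was lost without any 1 of Exercise arrays 306, 309 and 310 or non-Exercise arrays 327, 329, 330 and 331 (limma adjusted p from 0.00051 to 0.0714 over the 10 fits leaving out 1 array), with array weights (limma adjusted p = 0.0589) and with robust variances (limma adjusted p = 0.121). Without arrays 306, 309 and 310 together the change was 0.19 (limma adjusted p = 0.601).

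Irf4 (chr13:30749233-30766981), the closest relative of IRF8 in sequence and sharing its partner PU.1, was among the dimmest 25% of genes by mean level. It measured 7.25, 7.22, 7.45, 7.52 and 8.20 in Exercise tumours and 7.26, 7.66, 7.39, 7.47 and 7.65 in non-Exercise tumours. Array 310 was the highest of the 10 and the other Exercise arrays lay below the highest non-Exercise value. The log2 change was 0.04 ± 0.16, with a 95% interval from -0.30 to 0.39 (limma adjusted p = 0.923). The difference Irf8 minus Irf4 was 2.66 ± 0.75 in Exercise tumours and 1.68 ± 0.40 in non-Exercise tumours (SD, n = 5 each), larger by 0.98 with 4 Exercise arrays above all non-Exercise arrays (two-sided exact permutation p = 0.0397, adjusted p = 0.0714 over 3 pairs). The difference was 0.44 without arrays 306, 309 and 310. Adjusted for the 3 pairs, none of the pair differences passed.

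**Figure D2:**
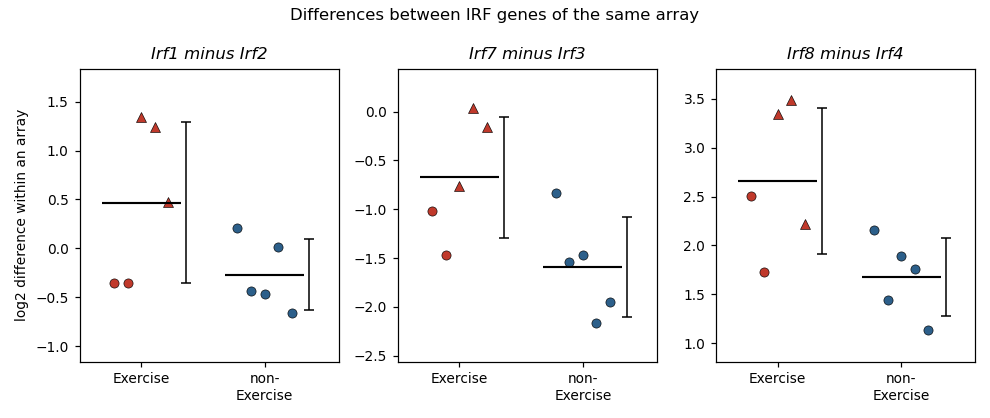
Difference in normalised log2 value between paired members (vertical axis) on each array, by group, for Irf1 minus Irf2, Irf7 minus Irf3 and Irf8 minus Irf4. Points are arrays, triangles mark Exercise arrays 306, 309 and 310, lines are means and bars 1 SD (n = 5 per group); 3, 3 and 4 Exercise arrays lie above all non-Exercise arrays in the 3 pairs.

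The members differed in how they varied within the Exercise group. Each of the 8 had a larger SD among Exercise than among non-Exercise arrays, as 63.7% of all genes did. Array 309 was the highest of the 10 arrays for 6 members and array 310 for the other two, Irf4 and Irf5. Of the non-Exercise arrays, 326 was the highest for 5 members, 327 for 2 and 329 for 1. In Exercise tumours Irf1 and Irf9 ran in the order 309, 306, 310, 301, 300 from high to low, and Irf8 in the order 309, 306, 310, 300, 301. Irf7 followed the order 309, 310, 306, 300, 301. Irf5 took a different order, 310, 309, 300, 306, 301, with array 300 above 306.

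**Figure D3:**
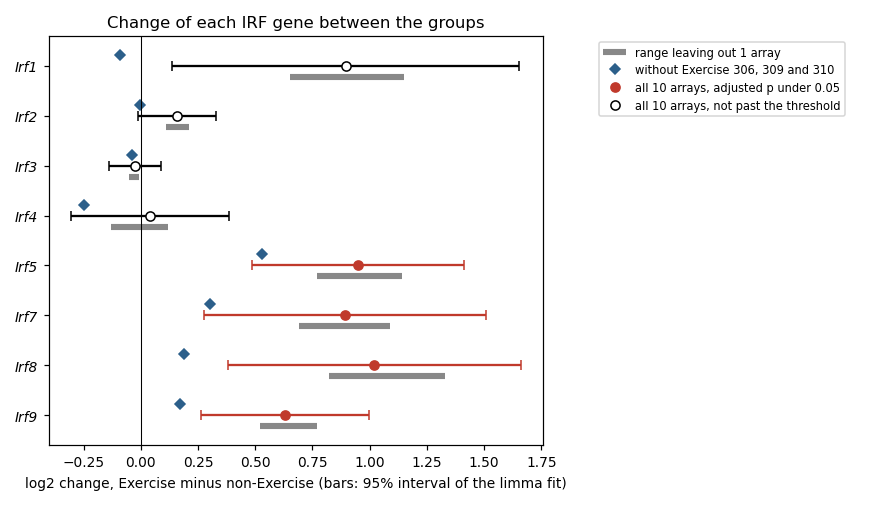
Log2 change, Exercise minus non-Exercise (horizontal axis), of the 8 IRF genes (vertical axis). Filled red points passed the threshold and open points did not, thin bars are 95% intervals, thick grey bars the range over the 10 fits that each left out 1 array, and diamonds the change without Exercise arrays 306, 309 and 310; the diamonds of Irf7, Irf8 and Irf9 lie between 0.17 and 0.30 and that of Irf5 at 0.53.

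The genes whose array-to-array pattern was most like each called member were found by the root mean square difference of centred log2 values over the 10 arrays. Nearest to Irf5 were Itgb2, the beta chain of leukocyte integrins, at 0.060, AI504432 at 0.069 and Pirb, an inhibitory receptor of myeloid and B cells, at 0.105. Nearest to Irf9 were the interferon-induced Ifitm3, which blocks viral entry, at 0.074, and the poly-ADP-ribose polymerase family members Parp12 at 0.096 and Parp10 at 0.109. Irf8 was matched less closely, by Apobec3, a cytidine deaminase that restricts retroviruses, at 0.156, the Ly49 receptor family gene Klra2 at 0.168 and Slamf9 at 0.183. Irf7 had the most distant matches, Phf11d at 0.202, the guanylate-binding protein gene Gbp8 at 0.236 and Slamf8 at 0.240. These genes were picked for likeness on the same arrays, so the values are a description. Without arrays 306, 309 and 310, Itgb2 (log2 change 0.56 against 0.94) and AI504432 (0.59 against 0.97) stayed called. Pirb, Ifitm3, Parp12, Apobec3, Klra2, Slamf9, Gbp8 and Slamf8 lost their calls there, with changes from 0.08 (Slamf9) to 0.54 (Pirb). Phf11d and Parp10 were not called with all arrays.

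Upstream of the family, the interferon genes themselves showed no called change. Of 20 listed ligands 15 were measured, 0 were higher and 0 were lower in limma (0 and 1 at an unadjusted p under 0.05), and their median log2 change was -0.04. Several were dim, with Exercise and non-Exercise means of Ifng (7.44 and 7.20), Ifna12 (6.95 and 6.93) and Ifna13 (6.99 and 7.03) below those of Irf4 (7.53 and 7.49). Ifna5 (9.50 and 9.37) and Ifnl2 (10.54 and 10.52) were brighter. Changes in the dim genes could have gone undetected. Ifnb1, the first target of activated IRF3, measured 7.45 ± 0.22 in Exercise and 7.72 ± 0.05 in non-Exercise tumours (SD, n = 5 each), a change of -0.26 ± 0.10 that did not pass (limma adjusted p = 0.0954). It passed in the direction of lower values when Exercise array 309 was left out. Ifng, the interferon of T and natural killer cells, measured 7.14, 7.17, 7.67, 7.87 and 7.34 in Exercise tumours and 7.41, 7.17, 7.10, 7.31 and 7.03 in non-Exercise tumours. It was highest in arrays 309 and 306, and its change of 0.23 ± 0.14 was within the spread (limma adjusted p = 0.296).

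Of the interferon receptors, JAK kinases and STAT factors, 11 of 12 listed genes were measured, and the median change was 0.04. In limma 2 were higher and 0 were lower, against 6.35% and 10.6% of all genes. Both called genes encode STAT factors. Stat2, the partner of IRF9 in ISGF3, measured 9.64, 9.59, 10.20, 10.74 and 10.37 in Exercise tumours and 9.69, 9.32, 9.34, 9.46 and 9.23 in non-Exercise tumours, a change of 0.70 ± 0.18 (limma adjusted p = 0.0185). As for Irf9, arrays 306, 309 and 310 were above all others and array 326 was above 300 and 301, and without those 3 Exercise arrays the change was 0.21 (limma adjusted p = 0.294). Stat2 also lost its call with robust variances. Stat3, which acts below cytokines of the interleukin-6 family, rose by 0.35 ± 0.07 (limma adjusted p = 0.00251) with every Exercise array at 12.12 or above and every non-Exercise array at 12.10 or below. Neither the receptor chain gene Ifngr2 (-0.14, limma adjusted p = 0.0836) nor the kinase gene Jak2 (0.21, limma adjusted p = 0.0651) passed. Jak2 did pass without Exercise array 300. Ifngr2 passed as lower without Exercise array 309, non-Exercise array 331 or arrays 306, 309 and 310 together. It also passed as lower as deposited, with median centring and with array weights, where the list had 1, 2 and 1 lower genes.

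Among 18 measured of 20 listed sensors, adaptors and kinases that act on IRF3, IRF5 and IRF7, 5 were higher and 2 were lower. The shares over all genes were 6.35% and 10.6%. The median change of the list was 0.08. Sting1, the adaptor of cytosolic DNA sensing, measured 11.54, 11.55, 12.12, 11.99 and 11.88 in Exercise tumours and 11.43, 11.21, 11.20, 11.35 and 11.25 in non-Exercise tumours. The groups did not overlap, and the change was 0.53 ± 0.10 (limma adjusted p = 0.00353). Mavs, the mitochondrial adaptor of RNA sensing, went the other way without overlap, at 10.40 to 10.83 in Exercise tumours and 10.89 to 11.03 in non-Exercise tumours, and fell by 0.42 ± 0.08 on the log2 scale (limma adjusted p = 0.00209). Ticam1, the adaptor of Toll-like receptor signals from endosomal RNA, also fell (-0.29 ± 0.09, limma adjusted p = 0.0346), a call lost without any 1 of Exercise arrays 300 and 310 or non-Exercise arrays 326, 329, 330 and 331. The RNA sensors Dhx58 (1.05, limma adjusted p = 0.0122) and Ifih1 (0.68, limma adjusted p = 0.0432) rose. Dhx58 lost its call with robust variances and without arrays 306, 309 and 310 (0.40, limma adjusted p = 0.250), where Ifih1 was at 0.18 (limma adjusted p = 0.642). Ifih1 was also not called without any 1 of Exercise arrays 306, 309 and 310 or non-Exercise arrays 327, 329, 330 and 331. Median centring, no intensity trend, robust variances and array weights each ended its call too. With the 3 Exercise arrays left out together, 1 gene of this list, Sting1, was higher (0.26, limma adjusted p = 0.0366). Mavs (-0.52, limma adjusted p = 0.000909) and Ticam1 (-0.39, limma adjusted p = 0.0247) stayed lower in that fit.

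Of the genes on this list that act towards IRF5, Myd88 and the gene for the adaptor TASL rose, while Irak1 (0.05, limma adjusted p = 0.720), Traf6 (0.0039, limma adjusted p = 0.985) and Slc15a4 did not pass. Myd88, the adaptor of most Toll-like receptors, measured 10.42, 10.24, 10.43, 10.97 and 10.81 in Exercise tumours against 10.04, 10.08, 10.18, 9.96 and 10.14, with no overlap and a change of 0.49 ± 0.12 (limma adjusted p = 0.0108). The gene annotated as 5430427O19Rik, which encodes the IRF5 adaptor TASL, rose by 0.58 ± 0.14 (limma adjusted p = 0.0107), while Slc15a4, its lysosomal partner, had a change of -0.06 ± 0.06 (limma adjusted p = 0.619). Without arrays 306, 309 and 310 neither Myd88 (0.25, limma adjusted p = 0.0778) nor 5430427O19Rik (0.25, limma adjusted p = 0.261) passed. The kinase genes Tbk1 (0.10, limma adjusted p = 0.329) and Ikbke (0.24, limma adjusted p = 0.118), whose products phosphorylate IRF3 and IRF7, fell short of the threshold, and Ikbke passed without Exercise array 301.

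The list of negative regulators and IRF2 binding proteins had 2 higher and 2 lower genes, with a median change of 0.10 over 11 measured of 12 listed genes. Of all genes, 6.35% were higher and 10.6% were lower. The higher genes were Usp18, which shuts off signalling at the type I interferon receptor, at 1.03 ± 0.27 (limma adjusted p = 0.019), and Socs3, a feedback inhibitor of STAT3, at 0.35 ± 0.08 (limma adjusted p = 0.00995). The call of Usp18 was lost without non-Exercise array 327 or 330, with robust variances and with array weights. The value of Usp18 in array 326, 10.49, stood above 9.10 to 9.39 on the other non-Exercise arrays. Both lower genes, Irf2bp1 and Irf2bpl, came from the IRF2 binding part of the list, and their products are of the family that binds IRF2. Irf2bp1 fell by 0.36 ± 0.07 on the log2 scale (limma adjusted p = 0.00437), from 10.42 to 10.71 in non-Exercise tumours to 10.10 to 10.40 in Exercise tumours without overlap. Irf2bpl fell by 0.31 ± 0.08 (limma adjusted p = 0.0192), a call lost without non-Exercise array 326 or 327. In limma, 0 genes of the list were higher without arrays 306, 309 and 310, with Usp18 at 0.52 (limma adjusted p = 0.306) and Socs3 at 0.25 (limma adjusted p = 0.150). Irf2bp1 (-0.42, limma adjusted p = 0.00841) and Irf2bpl (-0.37, limma adjusted p = 0.0326) stayed lower in that fit. Socs3 also lost its call with the mean of its probe sets. Leaving out 1 array gave 1 to 4 higher genes, with 4 without Exercise array 301.

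Of 11 partner factors of IRF4 and IRF8, all measured, the median change was 0.16. In limma 1 was higher and 1 was lower, against 6.35% and 10.6% of all genes. The counts were 2 and 2 as deposited, with median centring and with dim genes left out, 3 were higher without Exercise array 301, and 0 were higher with robust variances or without arrays 306, 309 and 310. Spi1, which encodes PU.1, the factor that recruits IRF8 and IRF4 to composite DNA elements, measured 9.74, 9.0, 9.71, 10.59 and 10.51 in Exercise tumours and 8.94, 9.09, 8.97, 8.56 and 8.88 in non-Exercise tumours. As with Irf8, all Exercise arrays but 301 were above all non-Exercise arrays, and the change was 1.02 ± 0.24 (limma adjusted p = 0.00943). Without arrays 306, 309 and 310 it was 0.48 (limma adjusted p = 0.0963). Tcf3, a basic helix-loop-helix factor of lymphocyte development, fell by 0.27 ± 0.06 on the log2 scale (limma adjusted p = 0.00461). It stayed lower without arrays 306, 309 and 310 (-0.28, limma adjusted p = 0.0216). Ikzf1 (0.58, limma adjusted p = 0.0543) passed only without Exercise array 301 among the fits leaving out 1 array, and Ets1 (-0.16, limma adjusted p = 0.0519) only without non-Exercise array 330.

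Genes that ISGF3 and IRF1 are known to induce had calls in the higher direction only. Of 18 measured ISGF3 targets of 20 listed, 12 were higher, 0 were lower, all 18 changes were positive and the median was 0.89. Mx1, a dynamin-like GTPase that blocks influenza virus, measured 8.46, 7.95, 8.41, 9.10 and 9.43 in Exercise tumours and 7.53, 7.26, 7.47, 7.09 and 7.24 in non-Exercise tumours, without overlap (1.35 ± 0.22, limma adjusted p = 0.00107). Oasl1, a member of the oligoadenylate synthetase family, rose by 1.26 ± 0.22 (limma adjusted p = 0.00153), also without overlap, and Oas2, which makes the activator of RNase L, by 1.31 ± 0.26 (limma adjusted p = 0.0041; 0.70 and 0.0584 without arrays 306, 309 and 310). Leaving out 1 array gave 9 to 16 called targets, and without arrays 306, 309 and 310 there were 2, Mx1 (0.89, limma adjusted p = 0.00352) and Oasl1 (0.81, limma adjusted p = 0.00507).

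Of 18 measured IRF1 and interferon gamma targets of 20 listed, 6 were higher, 0 were lower, all 18 changes were positive and the median was 0.84. Cxcl10, the chemokine that draws T and natural killer cells, measured 11.29, 10.73, 11.77, 12.11 and 11.35 in Exercise tumours and 10.19, 9.90, 10.07, 9.89 and 9.85 in non-Exercise tumours. The groups did not overlap, and the change was 1.47 ± 0.19 (limma adjusted p = 0.000263). Nlrc5, the activator of class I antigen presentation genes, rose by 0.73 ± 0.17 (limma adjusted p = 0.0107), Cd274, which encodes the checkpoint ligand PD-L1, by 0.84 ± 0.22 (limma adjusted p = 0.0166), and Casp1, the inflammasome protease, by 0.69 ± 0.18 (limma adjusted p = 0.0166). Only Cxcl10 of the list passed without arrays 306, 309 and 310 (1.04, limma adjusted p = 0.000792), with the other three at 0.21 to 0.29. Nlrc5 and Cd274 also lost their calls with robust variances. Leaving out 1 array gave 4 to 15 called targets, with 12 without Exercise array 300 and 15 without 301.

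The mean centred level of a list on each array shows where these targets were high. For the IRF1 targets it was -0.27, -0.37, 1.01, 1.02 and 0.55 in Exercise tumours and 0.08, -0.50, -0.44, -0.31 and -0.76 in non-Exercise tumours, which placed arrays 300 and 301 inside the non-Exercise range as for Irf1. For the ISGF3 targets it was -0.09, -0.09, 0.56, 1.04 and 0.79 against 0.15, -0.55, -0.52, -0.60 and -0.69, with array 326 above arrays 300 and 301 as for Irf9. Several targets and several members are induced by the same interferons, so these levels are not separate measurements of IRF activity.

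**Figure D4:**
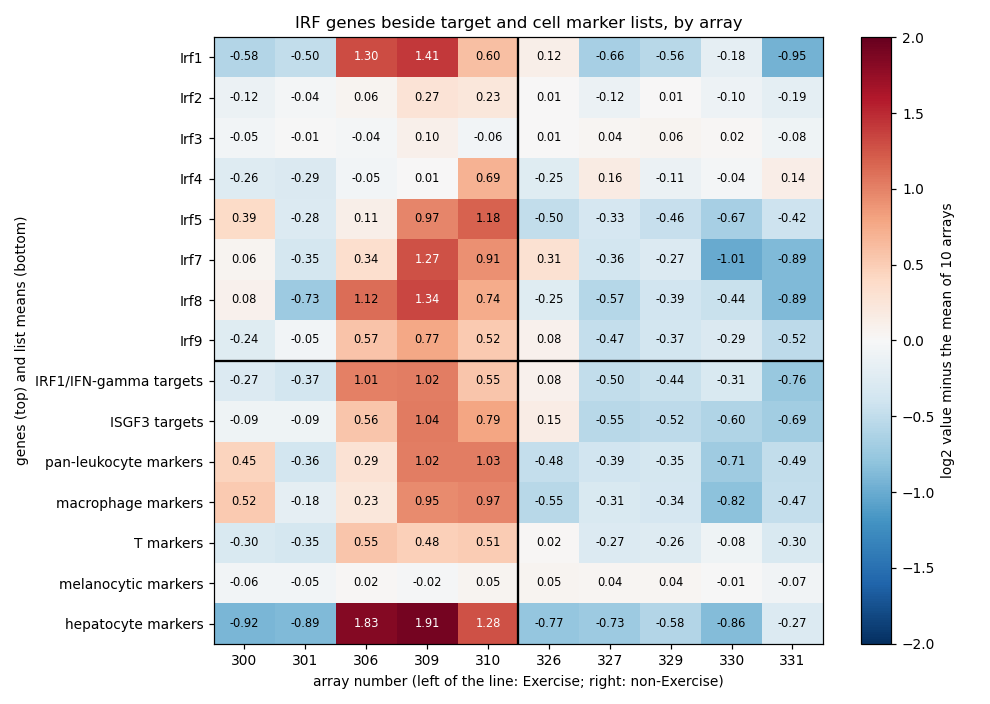
Centred log2 value (colour) of the 8 IRF genes and the mean centred value of gene lists (rows) on each of the 10 arrays (columns), centred on the mean of all arrays. Exercise arrays 306, 309 and 310 are high for Irf1, Irf8, Irf9 and the target lists, array 300 is high for Irf5 and the leukocyte and macrophage lists but not for Irf1, and array 326 stands above the other non-Exercise arrays for Irf1, Irf7 and Irf9.

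Macrophage and pan-leukocyte markers, from immune cells in which IRF5 and IRF8 are known to be expressed, were mostly higher in Exercise tumours. All 10 macrophage markers were higher, with a median change of 1.0, as were 5 of 6 pan-leukocyte markers, with a median of 0.98. Itgam, the integrin chain CD11b, rose by 1.43 ± 0.23 (limma adjusted p = 0.00114), and Cd53, a leukocyte tetraspanin, by 1.31 ± 0.20 (limma adjusted p = 0.000666). The mean centred level of the macrophage list was 0.52, -0.18, 0.23, 0.95 and 0.97 in Exercise tumours and between -0.82 and -0.31 in non-Exercise tumours. The pan-leukocyte list gave 0.45, -0.36, 0.29, 1.02 and 1.03 against -0.71 to -0.35. Both lists ran through the Exercise arrays in the order of Irf5, and for the macrophage list, as for Irf5, the groups did not overlap. Irf8 did not follow that order, with array 306 (10.79) above array 300 (9.76). Without arrays 306, 309 and 310, 5 macrophage and 2 pan-leukocyte markers were higher. Over the 10 fits that left out 1 array, 7 to 10 macrophage and 4 to 6 pan-leukocyte markers were higher. With robust variances the counts were 8 and 3. The part of macrophages and other leukocytes in the changes of Irf5, Irf7, Irf8 and Irf9 was not tested.

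Of 7 dendritic cell markers 2 were higher and 0 were lower, against 6.35% and 10.6% of all genes. The higher genes were Wdfy4 (0.72, limma adjusted p = 0.00375, and 0.40 without arrays 306, 309 and 310) and Flt3 (0.52, limma adjusted p = 0.0232). The list median was 0.26, with list levels of -0.11 to 0.32 in the Exercise and -0.27 to -0.04 in non-Exercise tumours. The call of Flt3 was lost without any 1 of Exercise array 309 and non-Exercise arrays 326, 327 and 330, and without arrays 306, 309 and 310 (0.24, limma adjusted p = 0.269); 4 markers were higher without Exercise array 301. Of 5 measured T cell markers 0 were higher and 0 lower in limma (1 and 0 at an unadjusted p under 0.05), with a median of 0.32; 1 was higher without Exercise array 300 and 2 without 301. T cell list levels were -0.30, -0.35, 0.55, 0.48 and 0.51 in Exercise tumours and -0.30 to 0.02 in non-Exercise tumours, so that arrays 306, 309 and 310 were highest, as for Irf1. Of 7 measured B and plasma cell markers, cells that use IRF4 and IRF8, 1 was higher and 0 were lower in limma. At an unadjusted p under 0.05 in limma 1 was higher and 2 were lower, and the median was -0.03. The higher gene was Cd79b (0.35, limma adjusted p = 0.0256). Its call was lost without any 1 of Exercise array 309 and non-Exercise arrays 326 and 329. Without arrays 306, 309 and 310 it fell short of the threshold (limma adjusted p = 0.0504). Tnfrsf17 (-0.25, limma adjusted p = 0.0543) and Cd79a (-0.22, limma adjusted p = 0.0818) did not pass. Tnfrsf17 was called lower without the intensity trend or without Exercise array 300, and Cd79a with array weights or without non-Exercise array 331. Keratinocyte markers (median 0.00295 over 6) had 0 calls in either direction in limma, and 0 at an unadjusted p under 0.05. Melanocytic markers (median -0.02 over 8 genes) had 0 calls too (1 higher and 2 lower at an unadjusted p under 0.05), but 2 were lower with median centring and with array weights, and 1 as deposited, with dim genes left out, or without Exercise array 306, Exercise array 310 or arrays 306, 309 and 310 together. The 7 measured hepatocyte markers had 0 calls with all arrays, but 6 were higher at an unadjusted p under 0.05, and 6 were called higher without Exercise array 300 or 301. Their mean centred level was 1.28 to 1.91 in arrays 306, 309 and 310, against -0.92 and -0.89 in arrays 300 and 301 and -0.86 to -0.27 in non-Exercise tumours. The part of each of these cell types in the IRF values was not tested.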

How the data were processed

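The deposited table holds 1 log2 value per probe set and array, summarised by the authors with PLIER per the submitters' processing notes; its version was not given in the sources used here. Their scale was taken as log2 from the range of the values, while the log base, an offset and the between-array step were not given in the sources used here. RNA was isolated with either of 2 RNeasy kits, per the labels' protocols, without saying which sample had which, and no scan date or slide was used, so neither could be tested as a batch.

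Array medians differed by 0.126, over the limit of 0.1, so values were quantile normalised with limma 3.58.1 in R 4.3.3. Of 35556 probe sets, 21789 had 1 gene symbol, 1621 had several and 12146 were not listed. The probe set with the highest mean was used for each of 999 genes with several, which left 19938 genes, and no filter on dim genes was applied. Of the genes in the lists 16 were not analysed here. The groups were compared in limma by lmFit and eBayes (trend on intensity, two-sided) with Benjamini-Hochberg adjustment over all genes and a threshold of 0.05. The 95% intervals are not adjusted for the number of genes. Pair differences were compared by an exact permutation test over all 252 assignments.

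The number of arrays limits the precision. Median centring gave 938 higher and 3076 lower genes, a share of 23.4% higher among the called, against 37.4% (1266 and 2118) with quantile normalisation.

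The members, the gene lists and the tests were chosen with earlier results of these data known. The text names all members, up to 4 genes with the smallest p in each list, and the 3 genes most like each called member in pattern, leaving out predicted genes and clones. Slc15a4, Irak1, Traf6, Tbk1, Ikbke, Dhx58, Ifih1, Ticam1 and Dct were named after their values were seen. Gene names, coordinates and promoters are from RefSeq on GRCm38.p6; the build of the array design was not given in the sources used here. Statistical code was tested on simulated data. Alternatives were array weights, robust variances, no intensity trend, averaged probe sets, dim genes removed, median centring, unnormalised deposited values, and fits leaving out arrays. Sequences were read and plots made in Python 3.11.15 with matplotlib 3.10.9.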

Additional observations from a re-analysis of the deposited data

How the results depend on the processing

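Against 4 members higher with all arrays, 1 was higher with robust variances, 2 with array weights and 1 without Exercise arrays 306, 309 and 310; leaving out 1 array gave 1 to 5, with 1 without Exercise 309 or 310 or non-Exercise 327, 329 or 331, 2 without Exercise 306 or non-Exercise 330, and 5 without Exercise 300 or 301. Irf5 passed under every alternative run, with limma adjusted p up to 0.0442. Of the IRF1 and interferon gamma targets, 3 were higher with robust variances and 1 without the 3 Exercise arrays, and 4 to 15 leaving out 1 array; of the ISGF3 targets, 5 with robust variances and 2 without the 3 arrays. The direction changed for Irf4 with array weights (-0.02), and without the 3 arrays for Irf1 (-0.09), Irf2 (-0.0033), Irf4 (-0.25) and Irf1 minus Irf2 (-0.09); the Irf4 change ran from -0.13 to 0.12 leaving out 1 array. The pair differences ran from 0.52 to 0.94 (Irf1 minus Irf2), 0.74 to 1.12 (Irf7 minus Irf3) and 0.77 to 1.21 (Irf8 minus Irf4) leaving out 1 array, and each passed without Exercise array 301 (exact permutation, adjusted p = 0.0476, 0.0357 and 0.0238). Over all genes, 750 were higher without the 3 arrays, against 1266. Causes of these differences were not tested, and the fits that left out arrays had fewer samples. The number of arrays, and for Irf4 and several interferon genes a dim signal, limit what could be detected.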
